A study of Mus musculus with 8 samples.

Results

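The Eph receptors, their ephrin ligands, the semaphorins and the plexin and neuropilin receptors that bind semaphorins are the large contact and guidance families of the nervous system. Their members were examined in the hippocampus of mice given benzo[a]pyrene (BaP), a polycyclic aromatic hydrocarbon. Members were all genes with a symbol beginning with Epha, Ephb, Efna, Efnb, Sema3, Sema4, Sema5, Sema6, Sema7 or Plxn, together with *Nrp1* and *Nrp2*, as named through the RefSeq record of each array probe. This gave 54 of the 20660 genes named on the array, carried by 69 probes. The brightest probe in the sample channel stood for each gene. Of these members, 53 code for protein and 1, *Plxna4os1*, is an antisense RNA. In all, 52 members gave enough signal to be compared, among 15090 genes compared on the array.

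The mice were adult males of the Muta Mouse strain, which carries a bacterial reporter gene for mutation assays in every animal of both groups. BaP in refined olive oil was given by gavage at 70 mg/kg bw daily on 3 days, control mice were the vehicle group, and the hippocampus was removed 24 hr past the final gavage. Each group held 5 animals by the labels, and total RNA of 4 control and 4 BaP-exposed mice was hybridized to 8 Agilent arrays of 1 slide. RNA of each mouse carried Cy5 and was set against a universal mouse reference RNA carrying Cy3, without a dye swap, so that every value below is a log2 ratio of Cy5 over Cy3 unless another scale is named.

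Eph receptors are receptor tyrosine kinases whose ligands, the ephrins, are themselves anchored in the membrane of neighbouring cells, so that signals can pass into both cells. A-type ephrins are held by a lipid anchor and B-type ephrins span the membrane. Class 3 semaphorins are secreted and mostly act through neuropilins paired with A-type plexins, whereas the semaphorins of classes 4 to 7 stay on the membrane and mostly bind plexins directly. Both systems steer growing axons. In the adult hippocampus they are known for roles in dendritic spines, synaptic plasticity and the arrangement of mossy fibre axons.

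The labels conflict for 4 of the 8 arrays: those of control mice 3 and 4 and BaP mice 3 and 4, all in the second row of the slide, have a title naming one group and a source name naming the other. Groups were taken from the titles, with which the animal numbers run. Results by source name are given for the families and for the 9 members described by mouse. Each slide row held 2 control and 2 BaP-exposed mice. The median Cy5 signal of a spot lay between 108 and 174 per array over a background of 67 to 71, and 56.6% to 67.4% of spots were well above background. Control mouse 1 stood apart with 1483 outlier spots against 310 to 371 on the other arrays, although none of the member spots used was marked. Precision is limited by how few arrays there are, and with 4 mice a group an exact permutation p cannot fall below 0.0286.

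Over all families the median was close to zero. After BaP, 24 of the 52 members were higher than in controls and 28 lower. Their log2 fold changes had a median of -0.01 and a range from -0.51 for *Plxna3* to 0.68 for *Epha7*. The median over all 15090 genes was likewise within 0.01 of zero. By limma, with p-values adjusted by Benjamini-Hochberg across the 32600 probes tested, 0 members passed a threshold of 0.05, and the lowest adjusted p was 0.481, for *Sema4a*. Over all genes, 0.0199% passed that threshold together with a fold change of 1.5.

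An unadjusted limma p of at most 0.05 was found for 7 of 52 members (13.5%), where 9.46% of all genes did. Higher in BaP-exposed mice were 3 of them, *Epha7*, *Epha10* and *Sema5a*, against 5.08% of all genes, and lower were 4, *Plxna3*, *Plxnc1*, *Sema4a* and *Sema4g*, against 4.38%. The count came to 5 by the gene-wise F test and 8 by limma with an intensity trend, where 8.22% and 8.56% of all probes were at or under that p. It moved with single mice, as did the share of all probes. Without BaP mouse 2 or BaP mouse 3 it was 4, beside 5.31% and 6.01% of all probes. Without BaP mouse 1 it was 11 and without BaP mouse 4 it was 12, beside 10.7% of all probes in both cases. Only *Plxna3* and *Sema4a* had groups that did not overlap, which is 3.85% of the members against 5.29% of all genes. A 1.5-fold increase was reached by 2 of 52 members, *Epha7* and *Sema3b*, where 0.954% of all genes were higher by that much. No member was lower by 1.5-fold, and of the 15090 genes only 68 were.

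**Figure D1:**
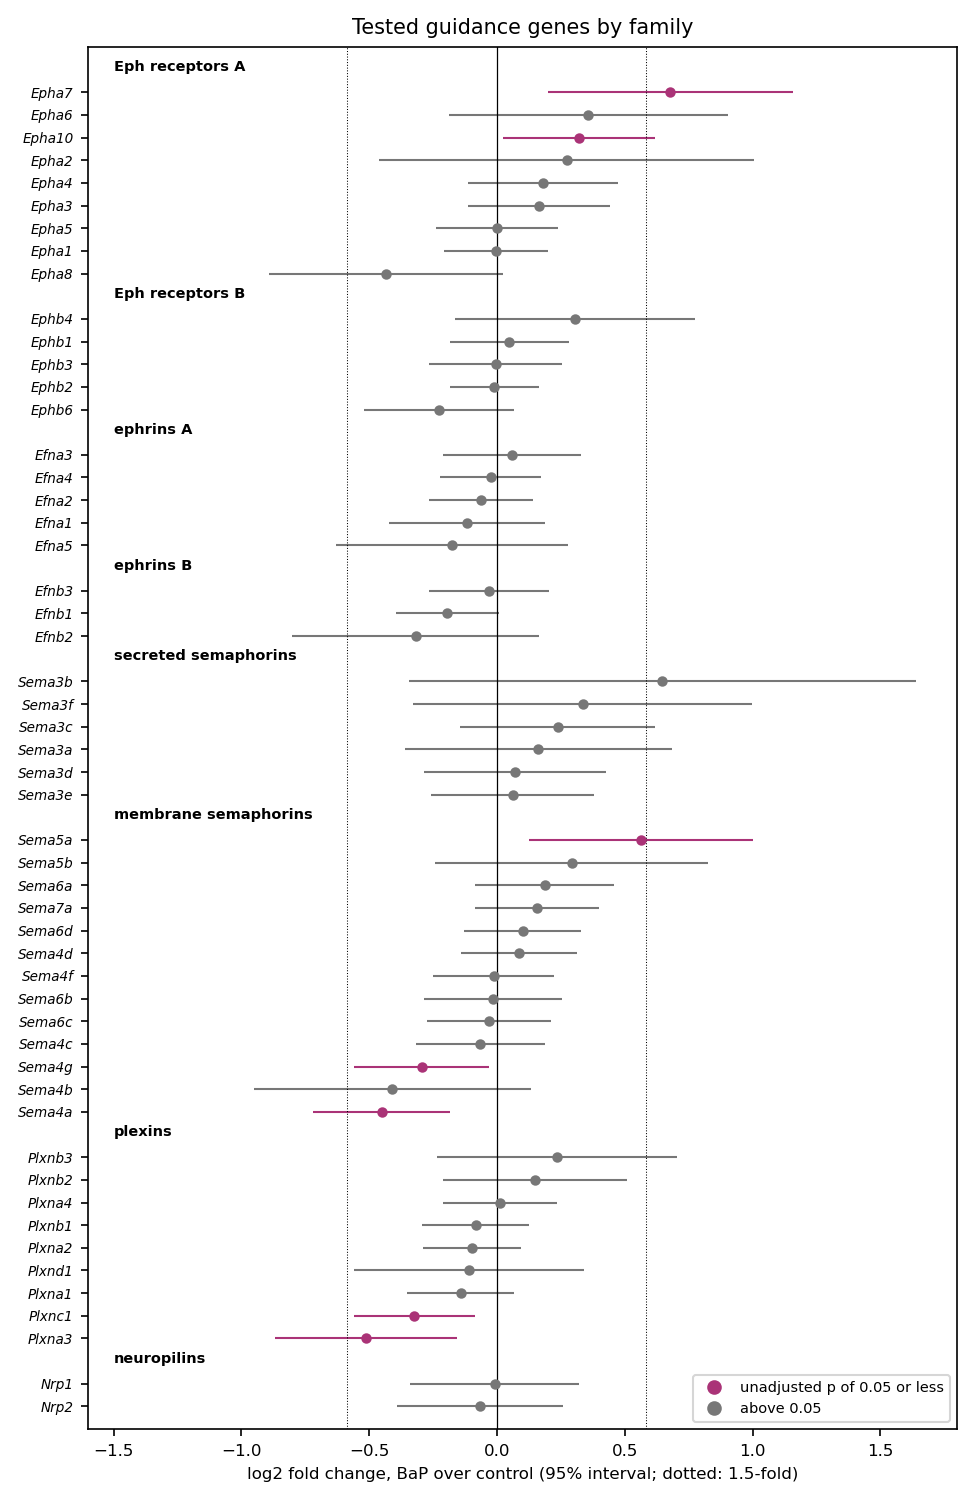
Log2 fold change of BaP over control for the 52 tested members, by family, from the brightest probe of each gene (x axis, with 95% limma intervals from 4 control and 4 BaP-exposed mice; dotted lines mark 1.5-fold in either direction). Most intervals span zero, the 7 colored members have an unadjusted p of 0.05 or less, and none passed the adjusted threshold.

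For most members the data were precise enough to bound the difference. In 34 of 52 (65.4%) the 95% interval of the fold change lay within 1.5-fold in both directions, compared with 86.3% of all genes. The median SD within a group was 0.20 on the log2 scale for the members and 0.15 for all genes. By family, the interval was that narrow in 8 of 14 Eph receptors, 6 of 8 ephrins, 2 of 6 secreted semaphorins, 9 of 13 membrane semaphorins, 7 of 9 plexins and 2 of 2 neuropilins. Single mice weighed on most values. With each mouse left out in turn, 43 of 52 log2 fold changes moved by over 1.5 times at least once and 19 changed sign, among them 2 of the 31 that were 0.1 or more in size, *Epha2* and *Plxnd1*. The 9 that moved less were *Epha7*, *Ephb6*, *Efnb1*, *Sema4a*, *Sema4g*, *Sema5a*, *Plxna1*, *Plxna3* and *Plxnc1*.

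In the Eph receptors, *Epha7* had the largest log2 fold change of any member. It encodes an A-type receptor for ephrin-A ligands, known from cortical and hippocampal neurons. The log2 ratio was 4.04, 4.00, 3.52 and 3.88 in control mice 1 to 4 and 4.79, 4.86, 4.67 and 3.83 in BaP mice 1 to 4. BaP mice 1, 2 and 3 were above all controls, and BaP mouse 4 lay inside the control range. *Epha7* was thus 1.60-fold higher on average, with a log2 fold change of 0.68 (SE 0.22, 95% interval 0.20 to 1.16), a limma adjusted p of 0.499 and an exact permutation p of 0.114. Because the tissue was measured in bulk, a change in the number of cells of a type and a change in RNA per cell cannot be told apart. This holds here and in the results that follow.

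*Epha7* is the only member covered by 3 tested probes, 2 of which have a sequence in the study's supplementary tables. They are shown because they state which stretch of the transcript was measured. The brightest is described there as made to transcript variant 2, and the next to variant 1.
Epha7 variant 2 probe: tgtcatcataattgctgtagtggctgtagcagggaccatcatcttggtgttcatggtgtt
Epha7 variant 1 probe: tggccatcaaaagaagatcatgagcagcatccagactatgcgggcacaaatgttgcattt
The 2 probes are 60 bases long and do not share their sequence. The variant 1 probe read 3.36, 3.40, 3.09 and 3.35 in control mice 1 to 4 and 3.58, 4.24, 4.21 and 3.30 in BaP mice 1 to 4, a log2 fold change of 0.54 (SE 0.20). The third probe had a log2 fold change of 0.44 (SE 0.45) with values from 2.63 to 5.13 among BaP-exposed mice. BaP mouse 4 was the lowest BaP-exposed mouse on all 3 probes. Against the brightest probe, neither difference of log2 fold change was past the spread between mice, at 0.14 for variant 1 (exact permutation p 0.629) and 0.24 for the third probe (exact permutation p 0.514, adjusted 0.8 over the 14 probe pairs).

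**Figure D2:**
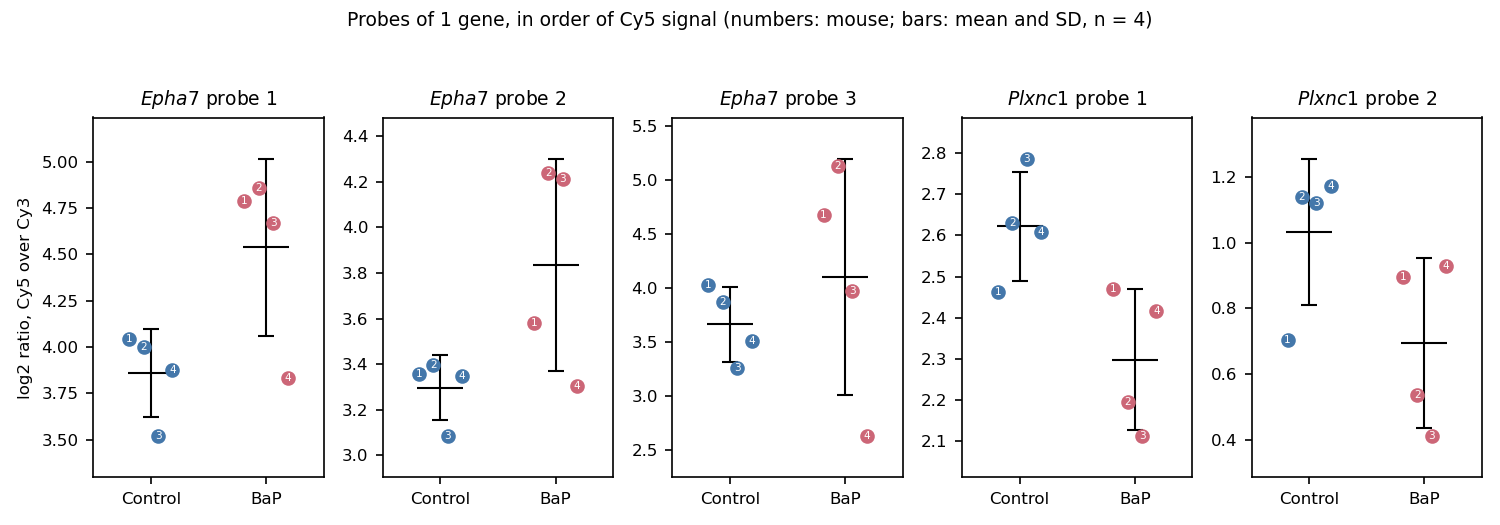
Log2 ratio of Cy5 over Cy3 in each mouse (numbered points) for the 3 tested probes of *Epha7* and the 2 of *Plxnc1*, with mean and SD of 4 mice a group, and a separate y axis for each probe. BaP mouse 4 is the lowest BaP-exposed mouse on each *Epha7* probe, and on both *Plxnc1* probes BaP mice 2 and 3 lie below all controls.

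*Epha10* encodes a receptor that lacks kinase activity. Its log2 ratio was 2.48, 2.58, 2.51 and 2.29 in control mice 1 to 4 and 2.76, 2.74, 3.15 and 2.49 in BaP mice 1 to 4. Again BaP mouse 4 lay within the control range and the other BaP-exposed mice above it. The log2 fold change was 0.32 (SE 0.13), with a limma adjusted p of 0.551 and an exact permutation p of 0.0857, and it was 0.20 without BaP mouse 3. The reference channel of this probe differed by 0.21 in the same direction, the largest such difference among the 9 members described by mouse. Its log2 Cy5 signal over the median probe differed by 0.43, so that the difference in the sample channel was larger than that in the ratio.

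*Epha8*, another A-type receptor, went the other way. It read -1.40, -0.79, -1.23 and -1.55 in control mice 1 to 4 and -1.96, -1.85, -1.77 and -1.11 in BaP mice 1 to 4. BaP mice 1, 2 and 3 were below all controls and BaP mouse 4 was higher than 3 of the 4 controls. The difference was -0.43 (SE 0.21, limma adjusted p 0.584, exact permutation p 0.143), and without control mouse 2 it was -0.28.

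The other A-type receptors had log2 fold changes from -0.00 for *Epha1* and *Epha5* to 0.36 for *Epha6*, so that 6 of 9 A-type receptors were higher by the main values and 8 of 9 under median centring, or 7 of 9 relative to the shift of 0.17 that this setting gave all probes. *Epha6* was at 0.17 without control mouse 1 and 0.59 without control mouse 4. *Epha2*, counted as higher at 0.27, was at -0.14 without BaP mouse 1. *Epha4*, the receptor of widest ligand range in the family, was at 0.18 with a 95% interval from -0.11 to 0.47. *Epha5*, a partner of *Efna5* in topographic mapping, had an interval from -0.24 to 0.24, and its second probe was at 0.11 (SE 0.09). In the B-type receptors, which act at excitatory synapses, *Ephb1*, *Ephb2* and *Ephb3* differed by 0.05, -0.01 and -0.01. Their 95% intervals lay between -0.27 and 0.28. *Ephb4*, best known from veins, was at 0.31 (SE 0.21) and *Ephb6*, which lacks kinase activity, at -0.23 (SE 0.13). Their second probes were at 0.13 (SE 0.12) for *Ephb4* and -0.06 (SE 0.12) for *Ephb6*.

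Ephrin ligands were lower in BaP-exposed mice in 7 of 8 genes by the main values, yet higher in 7 of 8 under median centring of each array without loess. Relative to the shift of all probes under that setting, 6 of 8 ephrins were lower. No ephrin reached an unadjusted p of 0.05, and their log2 fold changes ran from -0.32 for *Efnb2* to 0.06 for *Efna3*. The second probe of these genes was at -0.00 (SE 0.12) for *Efnb2* and -0.09 (SE 0.25) for *Efna3*. *Efnb1* was closest to a separation of the groups. It read -0.14, -0.04, 0.16 and 0.15 in control mice 1 to 4 and -0.17, -0.13, -0.24 and -0.11 in BaP mice 1 to 4. The groups overlapped, and the difference was -0.19 (SE 0.09, limma adjusted p 0.582). *Efna5*, an axon-repelling ligand in topographic maps, was at -0.18 (SE 0.20).

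Secreted semaphorins were higher in BaP-exposed mice in 6 of 6 tested genes, both by the main values and under median centring, but in 5 of 6 relative to the shift of all probes and in 5 of 6 in the Cy5 channel alone. Within each slide row 4 of 6 were higher, and by source name 2 of 6. Their median log2 fold change was 0.20 and no gene of the 6 reached an unadjusted p of 0.05 on its brightest probe. *Sema3g* could not be compared. It was well above background on 3 BaP arrays and 0 control arrays, with a log2 ratio of 0.03, 0.40, -0.01 and 0.05 in control mice 1 to 4 and 0.58, 0.29, 0.37 and 0.51 in BaP mice 1 to 4, values that rest on signal near background. *Plxna4os1* was well above background on no array.

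*Sema3b*, a secreted repellent that signals through neuropilins, had the second largest log2 fold change and the widest spread of all members. It read -0.41, -1.27, -0.51 and -1.85 in control mice 1 to 4 and -1.67, 0.13, 0.41 and -0.33 in BaP mice 1 to 4. BaP mice 2, 3 and 4 were above all controls while BaP mouse 1 was lower than 3 of them. The log2 fold change of 0.65 (SE 0.45, 95% interval -0.35 to 1.64) was below the SD of 0.68 in control and 0.92 in BaP-exposed mice, with a limma adjusted p of 0.68 and an exact permutation p of 0.257. It was 0.37 without control mouse 4, 0.39 without BaP mouse 3 and 1.08 without BaP mouse 1.

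The order of the mice for *Sema3b* ran with markers of the choroid plexus, a vascular tissue with an epithelial cover that projects into the brain ventricles. Over 16 such markers, the mean centred log2 ratio was 0.09, -0.91, 0.50 and -1.33 in control mice 1 to 4 and -1.72, 1.18, 1.59 and 0.61 in BaP mice 1 to 4. All 16 had a positive log2 fold change, by the main values, and none reached an unadjusted p of 0.05. The summed Cy5 signal of the list was 124 to 584 times the median probe in control mice and 83.4 to 1409 times in BaP-exposed mice, and none of its genes was below background on all arrays. Over the 8 mice, *Sema3b* and the list had a Pearson r of 0.981 (exact permutation p 0.000223) and a Spearman rho of 0.952 (exact permutation p 0.00114). Without control mouse 4 and BaP mouse 1, the mice farthest from the median of the list, r was 0.978. Adjusted over all 468 relations of 52 members with 9 marker lists, the p of r was 0.0522 and that of rho 0.174, so that neither passed. *Sema3b* also ran with the endothelial list, at an r of 0.920 (exact permutation p 0.00112, adjusted 0.104) and a rho of 0.857 (exact permutation p 0.0107, adjusted 0.295), and r was 0.852 without control mouse 4 and BaP mouse 3. The part of these tissues in the *Sema3b* result was not tested.

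*Sema3f* and *Plxnb2*, chosen after their values were seen, ran in much the same order. *Sema3f*, the secreted ligand of neuropilin 2 and plexin A3, read -1.49, -2.12, -1.55 and -2.02 in control mice 1 to 4 and -2.45, -1.24, -0.86 and -1.29 in BaP mice 1 to 4, with an r of 0.974 against the list (exact permutation p 0.000223, adjusted 0.0522). *Plxnb2*, a receptor for class 4 semaphorins, had an r of 0.938 (exact permutation p 0.000372, adjusted 0.058). For *Sema3b* and *Sema3f* alone among the 52 members, the 3 highest and the 3 lowest mice were those of the choroid plexus list. *Sema3f* differed by 0.34 (SE 0.30) and *Plxnb2* by 0.15 (SE 0.16) between groups, both with overlapping values. Without BaP mouse 3 these were 0.14 and 0.02, and without BaP mouse 1 they were 0.66 and 0.30. The samples within a slide row were too few for such a correlation.

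**Figure D3:**
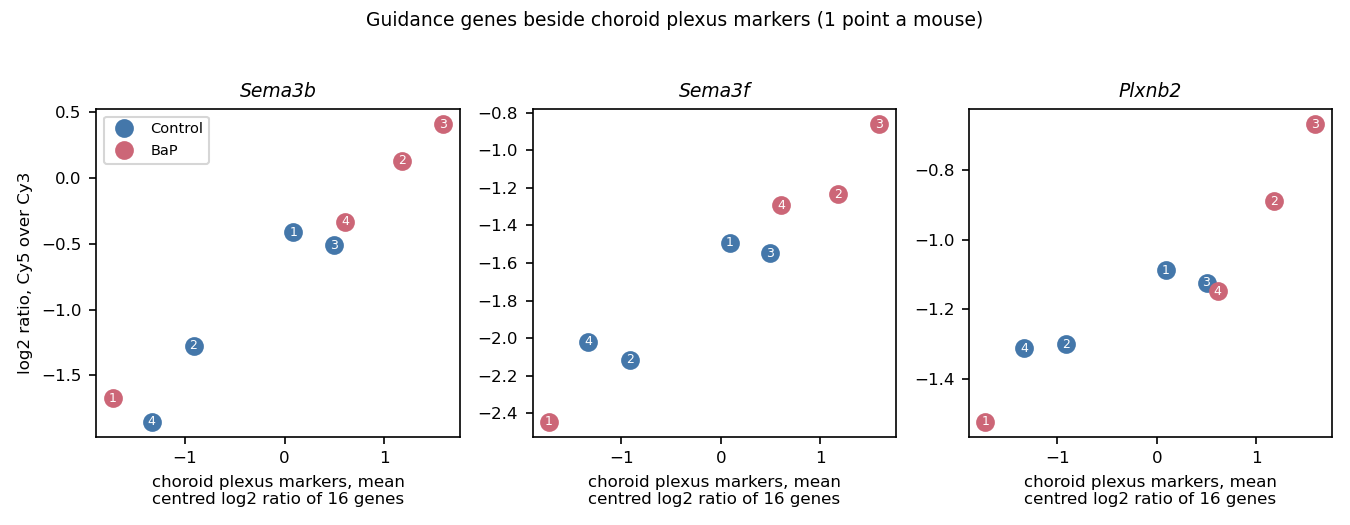
Log2 ratio of *Sema3b*, *Sema3f* and *Plxnb2* (y axis) against the mean centred log2 ratio of 16 choroid plexus markers (x axis), 1 numbered point a mouse. In all 3 panels BaP mouse 1 and control mice 2 and 4 are at the lower left and BaP mice 2 and 3 at the upper right.

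The remaining secreted semaphorins lay closer together. *Sema3c*, an attractive cue for some axons, was at 0.24 (SE 0.17), with a second probe at 0.30 (SE 0.12, limma unadjusted p 0.0313, adjusted p 0.539). *Sema3a*, a repellent of hippocampal axons that binds neuropilin 1, was at 0.16 (SE 0.23). *Sema3d* and *Sema3e* differed by 0.07 and 0.06, with 95% intervals from -0.29 to 0.43 and from -0.26 to 0.38.

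Membrane semaphorins are described by class, with no test of a difference between classes. In class 4, 5 of 6 genes were lower by the main values, with a median of -0.18, and 3 of 6 were lower under median centring, also relative to the shift of all probes. Both class 5 genes were higher under either normalization, and both were lower by source name. *Sema4a*, a class 4 semaphorin that binds plexins B and D1, was 1 of the 2 members with separate groups. It read 1.38, 1.71, 1.32 and 1.39 in control mice 1 to 4 and 1.14, 0.78, 0.90 and 1.17 in BaP mice 1 to 4. All BaP-exposed mice were lower than all controls, by a narrow margin between BaP mouse 4 and control mouse 3. *Sema4a* was 1.37-fold lower, with a log2 fold change of -0.45 (SE 0.12, 95% interval -0.72 to -0.18), a limma adjusted p of 0.481 and an exact permutation p of 0.0286, the smallest that the design can give.

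*Sema4g*, which binds plexin B2, overlapped between groups. It read 0.22, 0.71, 0.50 and 0.61 in control mice 1 to 4 and 0.27, 0.01, 0.23 and 0.34 in BaP mice 1 to 4. Control mice 2, 3 and 4 were above all BaP-exposed mice, and control mouse 1 fell among them. Its log2 fold change was -0.29 (SE 0.12, limma adjusted p 0.544, exact permutation p 0.114). *Sema4b* was at -0.41 with a wide interval from -0.95 to 0.13, and at -0.14 without BaP mouse 2, which lay far below the other mice. The other class 4 genes, *Sema4c*, *Sema4d* and *Sema4f*, lay between -0.06 and 0.09.

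*Sema5a* carries thrombospondin repeats beside its sema domain and can attract or repel axons. The log2 ratio was 2.40, 1.97, 1.97 and 1.64 in control mice 1 to 4 and 2.48, 2.81, 2.87 and 2.07 in BaP mice 1 to 4. BaP mice 1, 2 and 3 were above all controls, with BaP mouse 4 inside the control range. *Sema5a* was 1.48-fold higher, with a log2 fold change of 0.56 (SE 0.20), a limma adjusted p of 0.513 and an exact permutation p of 0.0571. *Sema5b*, its nearest relative, was at 0.29 (SE 0.24), with a second probe at 0.11 (SE 0.16), and at 0.04 without control mouse 4. The class 6 semaphorins, some of which act with plexins A2 and A4 in hippocampal lamination, were between -0.03 for *Sema6c* and 0.19 for *Sema6a*, all 4 with intervals within 1.5-fold. Of these, *Sema6d* was at 0.10 on its brightest probe and at -0.03 (SE 0.08) on its second. *Sema7a*, the lipid-anchored ligand of plexin C1, was at 0.16 (SE 0.11).

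Plexins were lower in BaP-exposed mice in 6 of 9 genes, and under median centring in 2 of 9, or 6 of 9 relative to the shift of all probes. *Plxna3*, which with neuropilin 2 receives *Sema3f* and takes part in the pruning of mossy fibres, had the largest decrease of any member. It read -0.63, 0.01, -0.67 and -0.73 in control mice 1 to 4 and -0.88, -1.16, -1.15 and -0.89 in BaP mice 1 to 4. The groups did not overlap, and control mouse 2 lay far above the other controls. *Plxna3* was 1.43-fold lower, with a log2 fold change of -0.51 (SE 0.16, 95% interval -0.87 to -0.16), a limma adjusted p of 0.499 and an exact permutation p of 0.0286. Without control mouse 2 the log2 fold change was -0.34.

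*Plxnc1*, the receptor of *Sema7a*, was measured by 2 probes. The brighter read 2.46, 2.63, 2.79 and 2.61 in control mice 1 to 4 and 2.47, 2.20, 2.11 and 2.42 in BaP mice 1 to 4. Control mouse 1 reached the level of BaP mouse 1, and otherwise the controls were higher. The log2 fold change was -0.32 (SE 0.11, limma adjusted p 0.50, exact permutation p 0.0571). On the second probe it was -0.34 (SE 0.15), with control mouse 1 again the lowest control at 0.70. The 2 probes differed by 0.02 in log2 fold change (exact permutation p 0.886). For the brighter one, the log2 Cy5 signal over the median probe differed by -0.18 and the Cy3 signal of the reference by 0.10, so that the difference in the sample channel was smaller than that in the ratio.

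The other A-type plexins, *Plxna1*, *Plxna2* and *Plxna4*, lay at -0.14, -0.10 and 0.01. *Plxnb1*, a receptor of *Sema4d*, was at -0.08 with an interval from -0.29 to 0.13, *Plxnb3* at 0.24 (SE 0.21) and *Plxnd1*, the receptor of *Sema3e*, at -0.11 (SE 0.20). The second probe of *Plxnd1* was at -0.02 (SE 0.14). Both neuropilins, the ligand-binding coreceptors, differed little, with *Nrp1* at -0.01 (95% interval -0.34 to 0.32) and *Nrp2* at -0.07 (95% interval -0.39 to 0.26).

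**Figure D4:**
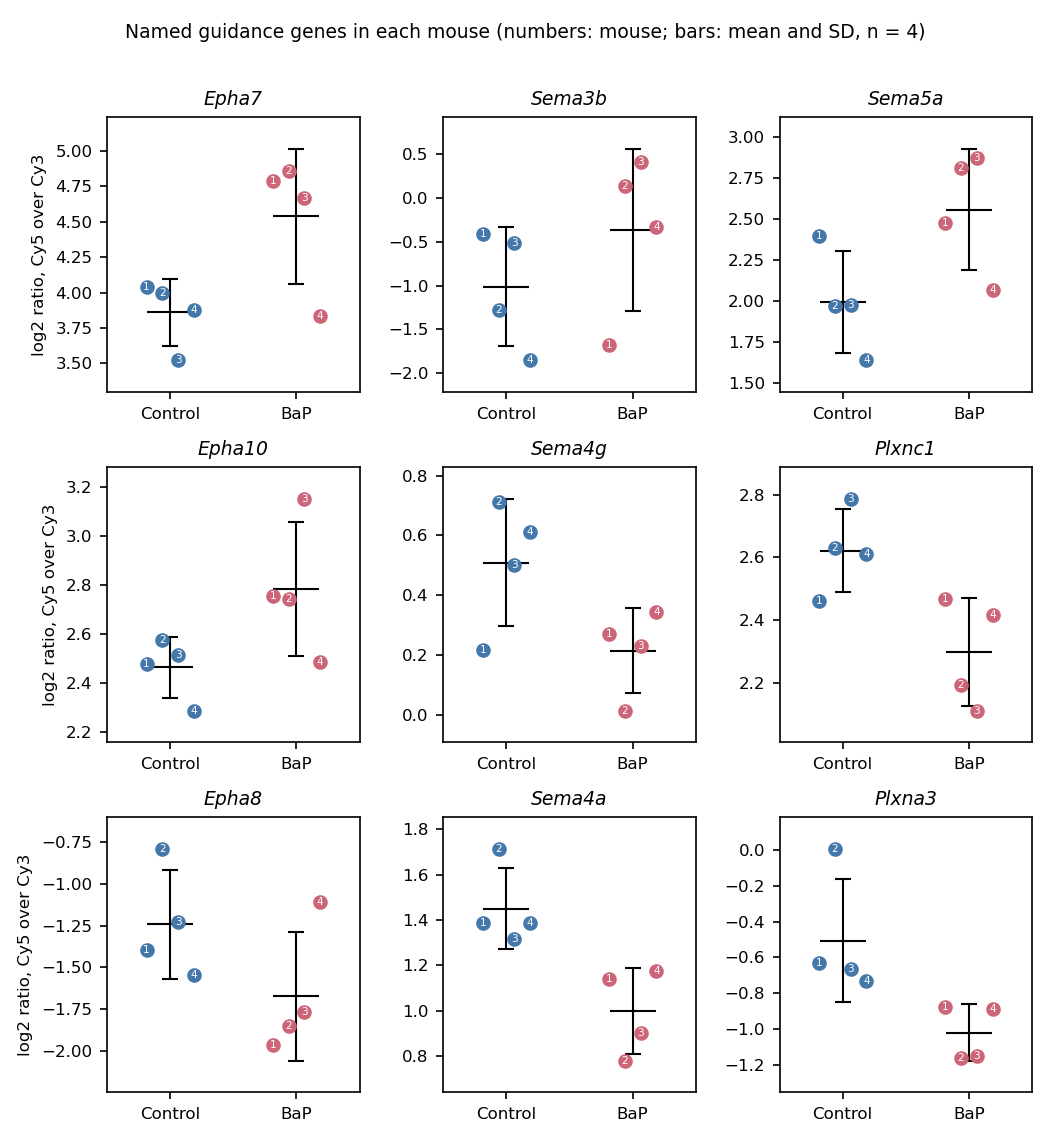
Log2 ratio of Cy5 over Cy3 in each mouse (numbered points) for the 9 members given by mouse, ordered by log2 fold change, with mean and SD of 4 mice a group and a separate y axis for each gene. The groups are apart for *Sema4a* and *Plxna3* and overlap for the other 7.

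Across these 9 members, BaP mouse 4 was the BaP-exposed mouse nearest to the control mean in 6, *Epha7*, *Epha10*, *Epha8*, *Sema4a*, *Sema4g* and *Sema5a*. For *Sema3b*, *Plxna3* and *Plxnc1* it was BaP mouse 1. All 9 kept their sign in both slide rows, but the size varied. Within the first row *Epha7* differed by 0.80 and within the second by 0.55, and *Sema5a* by 0.46 and 0.66. *Sema3b* differed by 0.07 in the first row and 1.22 in the second, and *Epha8* by -0.81 and -0.05. *Sema4a* was at -0.59 and -0.31 and *Plxna3* at -0.71 and -0.32. With the slide row as a block, adjusted p-values of the 9 in limma were 0.558 to 0.709.

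The conflict of labels bears on each of these values. Grouped by source name, *Epha10*, *Plxnc1*, *Sema3b* and *Sema5a* had the opposite sign, at -0.10, 0.11, -0.57 and -0.10. *Epha7* was at 0.13, *Sema4a* at -0.14, *Plxna3* at -0.19, *Epha8* at -0.38 and *Sema4g* at -0.03, all but *Epha8* well below their main value in size. Of the 52 members, 4 (7.69%, beside 4.39% of all probes) then had an unadjusted p of 0.05 or less, and 27 were higher: 9 of 14 Eph receptors, 5 of 8 ephrins, 2 of 6 secreted and 6 of 13 membrane semaphorins, 4 of 9 plexins and 1 of 2 neuropilins. For the erythroid markers described last, the mean centred log2 ratio was -0.31 and -0.23 in the second-row mice titled BaP and 0.39 and 0.36 in those titled control, beside -0.38 and -0.46 and 0.38 and 0.25 in the first row. In the first slide row title and source name agree, and there *Epha7*, *Sema5a*, *Sema4a* and *Plxna3* had the signs given above.

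**Figure D5:**
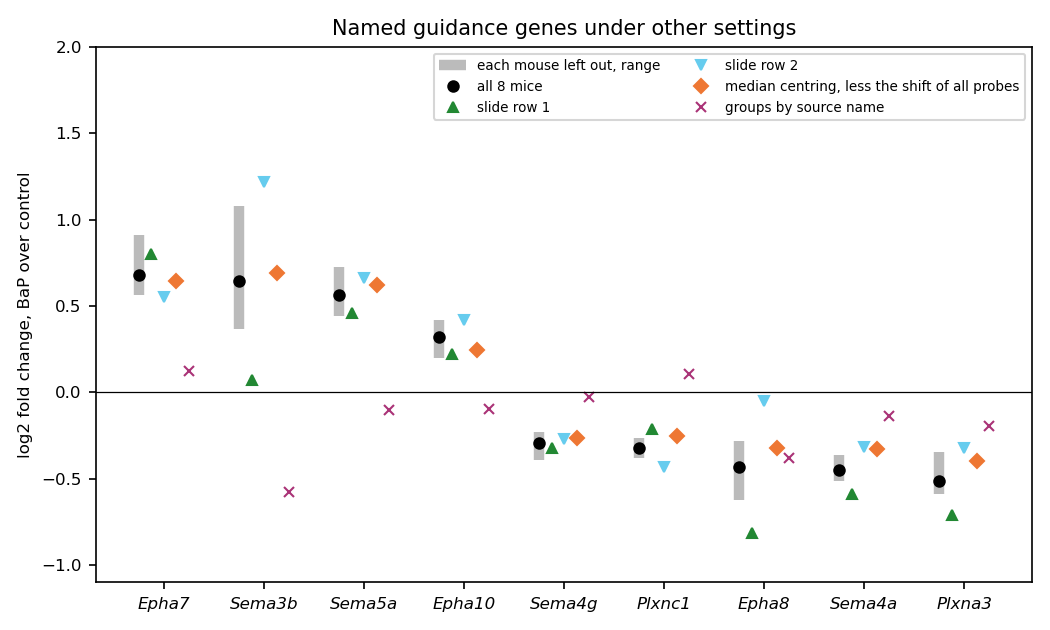
Log2 fold change of the 9 members with all 8 mice, within each slide row, after median centring less the shift of all probes, and with groups by source name (symbols), beside the range when each mouse was left out (grey bars). Signs are the same in both slide rows and under median centring, and by source name they turn for *Sema3b*, *Sema5a*, *Epha10* and *Plxnc1*. Most of the 9 were chosen for their difference over all 8 mice, which is the mean of the 2 rows.

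The sample and reference channels were also compared one by one. Relative to the median probe, the log2 Cy5 signal differed by 0.69 for *Epha7*, 0.57 for *Sema5a*, -0.35 for *Sema4a* and -0.48 for *Plxna3*. The Cy3 signal of the reference differed by 0.07, -0.02, 0.01 and -0.05 for the same genes, and by -0.07 to 0.21 over the 9.

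Set against the universal reference RNA, control hippocampus was higher in all 4 mice for 33 of 52 members (63.5%, compared with 47.5% of all genes) and lower in all 4 for 16 (30.8%, compared with 38.6%). Membrane semaphorins were above the reference in 12 of 13 genes, while secreted semaphorins were below it in 4 of 6. *Epha4* and *Efnb3* had mean log2 ratios of 4.97 (SD 0.12, n = 4) and 4.45 (SD 0.20, n = 4), and *Epha2*, an epithelial Eph receptor, one of -3.30 (SD 0.05, n = 4). Dye effects cannot be told apart from these ratios, since no dyes were swapped.

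Signaling partners of these receptors and other guidance systems were followed as lists, beside the 9.46% of all genes with an unadjusted p of 0.05 or less and the 5.29% with separate groups. Of 23 Eph signaling partners, such as exchange factors and adaptors, 10 were higher and 13 lower with a median of -0.01, and 3 reached an unadjusted p of 0.05, 1 higher and 2 lower. None of those had separate groups. Of 35 plexin partners, 15 were higher and 20 lower with a median of -0.02, and 3 (8.57%) had such a p. One of them had separate groups, *Mical1*, a monooxygenase that takes down actin filaments after plexin signals. It ran from -1.02 to -0.60 in control and from -1.20 to -1.05 in BaP-exposed mice, a log2 fold change of -0.30 (SE 0.10, limma adjusted p 0.50, exact permutation p 0.0286). Of 20 tested genes of the netrin, slit and repulsive guidance molecule systems, 6 were higher and 14 lower with a median of -0.11, and 1 (5.0%) had such a p. That gene was *Neo1*, a receptor for netrins and repulsive guidance molecules, which ran from -0.21 to -0.10 in control and from -0.47 to -0.26 in BaP-exposed mice. *Neo1* had a log2 fold change of -0.24 (SE 0.08, limma adjusted p 0.50, exact permutation p 0.0286). *Ntn1*, a netrin, also had separate groups but not such a p. None of the genes in the 3 lists passed the adjusted threshold.

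Promoters were searched for GCGTG, the core of the element bound by the aryl hydrocarbon receptor, for which BaP is a ligand. The RefSeq promoters of build GRCm38.p6, each 300 bases from 250 before to 50 after a transcript start, covered 47 of the 54 members. On either strand, 26 of their 61 promoters (42.6%) held the motif, compared with 32.4% of all 32851 promoters. Of the 9 members given by mouse, 8 had a promoter here and 5 held the motif: *Epha8*, *Plxnc1*, *Sema5a*, *Sema4g* and *Plxna3*. The windows below, on the strand of the gene, show the copy closest before the start, with the motif in capitals, read as CACGC where it lies on the opposite strand. Windows of other copies can overlap them, and no other motif was searched.
Sema5a, chr15:32244692-32244720, plus strand, 109 bases before the start: gcgctcagtttgCACGCgggaggggcgga
Sema4g, chr19:44989151-44989179, plus strand, 181 bases before the start: cgggtctattgtGCGTGgtgggggtcgca
Plxnc1, chr10:94945032-94945060, minus strand, 203 bases before the start: gaggggagatggGCGTGgagggagggcgg
Epha8, chr4:136956820-136956848, minus strand, 20 bases before the start: tgcggctgagccGCGTGtgcgccggccgg
The motif of *Plxna3* lay 34 bases after its start. None of the promoters of *Epha7*, *Epha10* and *Sema4a* in the table held it in this window. The 5 members with the motif include 1 that was higher and 4 that were lower in BaP-exposed mice, and a match of 5 letters is a description of sequence only.

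Other cell type markers were measured in the same tissue. Each marker of hippocampal neurons was well above background on at least 1 array, and 10 of 14 were higher in BaP-exposed mice. Over the 13 markers with a value on all arrays, which leaves out *Grik4*, the mean centred log2 ratio was -0.08, -0.14, -0.11 and -0.16 in control mice 1 to 4 and 0.17, 0.29, 0.15 and -0.13 in BaP mice 1 to 4. BaP mouse 4 lay among the controls, as it did for *Epha7*, *Epha10* and *Sema5a*. Over the 8 mice, 7 of the 9 members given by mouse correlated with this list at an unadjusted exact permutation p of 0.05 or less, *Epha7*, *Epha10* and *Sema5a* positively and *Epha8*, *Sema4a*, *Sema4g* and *Plxnc1* negatively. Pearson's r was 0.744 to 0.934 in size and Spearman's rho 0.571 to 0.905, with exact permutation p adjusted over the 468 relations of 0.104 to 0.331 for r and 0.237 to 0.528 for rho. Without BaP mice 1 and 2, the farthest from the median of the list, r was 0.636 to 0.950 in size. All of these except *Epha10* ran the same way with the oligodendrocyte list, with r of 0.726 to 0.848 and rho of 0.595 to 0.810 in size, adjusted exact permutation p of 0.188 to 0.316 for r and 0.363 to 0.528 for rho, and r of 0.292 to 0.738 without BaP mice 2 and 3. *Epha7* ran against the astrocyte list (r -0.767, exact permutation p 0.0123, adjusted 0.265; rho -0.833, exact permutation p 0.0154, adjusted 0.360), with an r of -0.646 without control mouse 3 and BaP mouse 4. None of these relations passed the adjustment. Of the 468 relations, 63 had an unadjusted exact permutation p of 0.05 or less for r. Most of the 9 members were chosen for a difference between groups, and on the neuron list BaP mice 1, 2 and 3 lay above all controls. A correlation over both groups is thus partly fixed by that choice, and none within a group was computed. Erythroid markers were lower in 7 of 8 genes, with a mean from 0.25 to 0.39 in control and from -0.46 to -0.23 in BaP-exposed mice, groups that did not overlap. Since this list parted the mice by group, no correlation with it is given. Markers higher in BaP-exposed mice numbered 9 of 14 for oligodendrocytes, 8 of 12 for endothelium, 3 of 8 for thalamus, 3 of 12 for meningeal fibroblasts, 2 of 9 for astrocytes and 4 of 8 for microglia, and the mean centred log2 ratios of these lists overlapped between groups. Outside the erythroid list, groups were separate for 4 of 93 markers (4.30%, beside 5.29% of all genes): *Grik4*, a kainate receptor subunit of hippocampal neurons, at -0.64 (SE 0.13, on 3 control and 4 BaP arrays), *Pou3f1*, a neuronal transcription factor, at 0.52 (SE 0.14), the endothelial *Cldn5* at -0.57 (SE 0.08) and the oligodendrocyte gene *Opalin* at 0.57 (SE 0.13). None of these passed the limma adjusted p of 0.05, and of the erythroid markers *Hbb-bs* (-1.90, adjusted p 0.00233) and *Alas2* (-1.05, adjusted p 0.0444) did. The part of any of these in the values of the guidance genes was not tested.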

How the data were processed

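Total RNA of the hippocampus of 8 mice was measured on 2-color Agilent arrays of 55681 probes. Per spot, the authors deposited an intensity in both channels, from Agilent Feature Extraction, with local background and outlier marks, and a table of log2 ratios of Cy5 over Cy3, with LOWESS normalization per the paper's methods. Its test was a microarray analysis of variance.

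Using R 4.3.3 and limma 3.58.1, the deposited spot medians were background-corrected by normexp (offset 50). Control spots were dropped, outlier spots set to missing, log2 ratios normalized by loess within each array, and spots of a probe averaged. A probe was tested (32600 in all) when its Cy5 signal was well above background on 4 or more of the 8 arrays. Tests used lmFit, then eBayes, with adjusted p-values by Benjamini-Hochberg, a threshold of 0.05 and, where stated, a 1.5-fold change. Groups followed the sample titles. All permutation tests were exact and 2-sided, with 70 assignments of mice to groups, or 40320 pairings for a correlation. Python 3.11.15 (scipy 1.17.1, numpy 2.4.6, pandas 2.3.3) was used for tables, and the fit was tested on simulated data.

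Probes were named through their RefSeq record, with symbols of assembly GRCm38.p6. The members and lists were chosen with earlier results of these data known. Members were given by mouse if they had an unadjusted p of 0.05 or less, groups without overlap, a mention in the study (*Epha7*, *Sema3b*, *Sema5a*) or 1 of the 3 largest increases or decreases. *Efnb1*, *Sema3f* and *Plxnb2* were chosen after their values were seen, and *Sema3g* is given because it could not be compared. Partner genes were named if they had such a p and groups without overlap. Alternatives covered the background correction, normalization, the authors' log2 ratios, the Cy5 channel alone, filters, outlier spots, blocks, the test, the probe for a gene, the source names and each mouse left out. The RNA-seq, RT-PCR and adduct data were not analysed here.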

Additional observations from a re-analysis of the deposited data

Results flagged for a closer look

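Of 104 groups of 4 mice (52 members in 2 groups), 5 held a mouse farther from the rest than a test for a single outlying value allows at the 95% level, measured as the gap to the nearest mouse over the range of the group. Chance alone gives about 5.2 such groups. *Epha2* in BaP mouse 1 was at -1.79 against -3.61 to -3.34 in the other BaP-exposed mice (gap 0.85 of the range). *Epha3* in BaP mouse 4 was at 2.14 against 2.54 to 2.58 (gap 0.893). *Ephb4* in control mouse 1 was at -2.15 against -2.69 to -2.64 in the other controls (gap 0.907). *Efna1* in control mouse 4 was at -1.96 against -1.56 to -1.51 (gap 0.886). *Plxna3* in control mouse 2 was at 0.01 against -0.73 to -0.63 (gap 0.86), and this mouse is part of the control group from which the BaP-exposed mice did not overlap.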

How the results depend on the processing

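No member passed an adjusted p of 0.05 under any alternative run. *Epha7*, *Epha8*, *Plxna3*, *Sema4a* and *Sema4g* kept their direction under all 23 alternatives, with adjusted p-values of 0.10 to 0.965 for *Epha7*. *Epha10*, *Plxnc1*, *Sema3b* and *Sema5a* did so under 22 and turned by source name, to -0.10, 0.11, -0.57 and -0.10. The filters on dim probes, the blocks and the other tests left these 9 log2 fold changes as they were, so no direction could turn there. By source name, a sign was kept where slide row 1 held the larger difference in size. Median centring without loess moved the median of all probes by 0.17 and gave 45 members higher, of which 32 lay above that shift, and 11 (21.2%) with an unadjusted p of 0.05 or less, beside 18.6% of all probes, and the source names gave 4 such members (7.69%). Leaving out each mouse gave 4 to 12 such members, beside 5.31% to 10.7% of all probes. Over all probes, where 3 passed the adjusted p and fold, 6 passed in the Cy5 channel alone, 5 without the filter on dim probes, 1 to 3 with a mouse left out, and 0 by the gene-wise F test, within slide row 1, within slide row 2 and by source name, where 8.22%, 6.95%, 6.14% and 4.39% of probes were at or under an unadjusted p of 0.05. The cause of these differences was not tested, except that a slide row holds 4 mice. Same-numbered mice of the 2 groups did not deviate together (r of -0.35, 0.03, -0.01 and -0.01), so the numbers were not taken as pairs. With the replicate number as a block, 6 members (11.5%) were at or under an unadjusted p of 0.05, beside 7.30% of all probes, and 0 passed the adjusted p. Dim probes limit *Sema3g* and *Plxna4os1*, which could not be compared.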
